A study of Homo sapiens with 32 samples.

Results

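The nuclear pore complex is the gate through which protein and RNA pass between nucleus and cytoplasm, and nuclear transport receptors carry their cargo through it. The genes studied here encode nucleoporins, importins, transportins, exportins, the Ran cycle and the mRNA export receptor NXF1. They were chosen by symbol after the RefSeq accession of each transcript had been matched to a current gene symbol. Coding transcripts (NM_ accessions) were taken with a symbol of NUP, IPO or XPO followed by a digit (XPO5 left out), of KPNA, KPNB or TNPO, or among 16 further symbols: SEH1L, RAE1, POM121, NDC1, TPR, AAAS, RANBP2, AHCTF1, RAN, RCC1, RANGAP1, RANBP1, CSE1L, NUTF2, NXF1 and NXT1. This gave 74 transcripts of 59 genes, out of 12966 transcripts that had a decay rate in both cell lines, 11853 of them coding. The rule uses no measured value, although it was set with earlier results of these data known. The NUP rule also took in NUP210L and NUP62CL, which are paralogues of pore proteins.

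The study compared RNA stability between the human breast cancer line MDA-MB-231, an established line, and its derivative MDA-LM2, which was selected for metastasis to the lung. In both lines, newly made RNA was labelled for 2 h with 4-thiouridine (4sU), a uridine analogue, and the label was then chased with an excess of unlabelled uridine. Labelled RNA was recovered and sequenced at 0, 2, 4 and 7 h, in 4 series per line, 32 libraries in all. Both lines were grown in the same serum-supplemented medium and no other treatment is named, so the groups are MDA-MB-231 and MDA-LM2 alone, with 4 series each.

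The tables give 1 decay rate per transcript and series, positive where the measured abundance of labelled RNA fell over the chase. No source used here gives the log base or scale of the rates, so they are stated in the deposited unit and were not turned into half-lives. Series 1 to 4 of a line carry the title numbers 1_1, 1_2, 2_1 and 2_2, in that order. Series 1 and 3 share the second number 1 and series 2 and 4 the second number 2. What these numbers stand for, and whether the series came from separate cultures, the sources do not say. The p-values therefore measure only the spread between these series. Series of a line with the same second number deviated from the line's mean together (correlations across transcripts of 0.115 to 0.361). Those with different second numbers had correlations of −0.669 to −0.536. Deviations from a shared mean sum to 0, which by itself forces negative correlations between some of the series. Because series of the same second number deviated together, calls past the adjusted p are also given from a fit that lets them be correlated. Rates reached beyond 1 on either side of 0 in 34.5% of all transcripts, and transcripts with all 8 rates within 1 of 0 are described apart from the rest. The tables hold rates and no abundances, so the lines could not be checked by marker levels. A rate was listed for 7 of 7 markers of basal or mesenchymal tumour cells, 1 of 3 luminal markers, 1 of 4 immune markers and 0 of 4 endothelial and fibroblast markers.

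Pores are built from rings of repeated subunits. The Y complex forms the outer scaffold rings, the inner ring and the membrane nucleoporins anchor the pore in the nuclear envelope, and nucleoporins rich in phenylalanine and glycine repeats fill the channel. Importins load cargo in the cytoplasm and release it when they bind RanGTP in the nucleus. Exportins bind cargo together with RanGTP, and NXF1 carries mRNA out without Ran. Scaffold nucleoporins are known as long-lived proteins. The pore is taken apart and rebuilt at each division of a human cell.

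AU-rich elements in 3′ untranslated regions are known binding sites of proteins that speed or slow mRNA decay. The motif TATTTAT was therefore looked up on the transcript strand of each 3′ untranslated region, along with the shorter ATTTA, counting overlapping matches. Every TATTTAT contains an ATTTA and so counts toward both. Sequences came from GENCODE v29 (GRCh38), matched by RefSeq accession, and all 74 transcripts were matched. The windows below come from a scaffold transcript called slower in MDA-LM2 (NUP107) and from KPNA6. KPNA6 was the importin alpha transcript whose MDA-LM2 rates all exceeded its MDA-MB-231 rates, without being called. The others come from the main exportin (XPO1), from a channel nucleoporin with several motifs (NUP58) and from a long isoform (SEH1L). Capitals mark the motif, and each window is 30 bases, 5′ to 3′.
NUP107 (NM_020401): acgtaatttttTATTTATcataaaatttag
KPNA6 (NM_012316): aagcaaaatatTATTTATttagcccaggct
XPO1 (NM_003400): atggttaaaaaTATTTATcctgttagaata
NUP58 (NM_014089): gttagtagaccTATTTATgattcaattgca
SEH1L (NM_031216): ttttatggtgtTATTTATtccatggcttag
In the order shown, these motifs lie 369, 2774, 728, 1602 and 764 bases after the stop codon.

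Across the transport genes, most rates were lower in MDA-LM2, meaning slower decay, and the difference was small. Of the 74 transcripts, 57 (77.0%) were lower in MDA-LM2 by their mean, beside 66.2% of all transcripts. The median of the difference (MDA-MB-231 subtracted from MDA-LM2) was −0.0413 over the transport transcripts and −0.0538 over all transcripts. Restricted to rates within 1 of 0, 39 of 54 (72.2%) were lower, beside 57.5% of all such transcripts, with medians of −0.0258 and −0.0166. Over all transcripts the median rate was 0.159 ± 0.0115 in MDA-LM2 against 0.182 ± 0.0156 in MDA-MB-231 (SD, n = 4 series). When each series was centred on its own median over all transcripts, the median difference came to −0.0181 over the transport transcripts and −0.0307 over all.

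The limma fit over all transcripts called 5 transport transcripts slower in MDA-LM2 at a Benjamini-Hochberg adjusted p below 0.05, which is 6.76% of 74, beside 6.04% of all transcripts. These were NUP43 and NUP107 of the Y complex, NUP205 of the inner ring, 1 transcript of the channel protein NUP62 and 1 of the Ran exchange factor RCC1. No transport transcript was called faster in MDA-LM2, beside 1.9% of all transcripts. At an unadjusted limma p below 0.05, 14 were lower (18.9%, beside 18.0% of all transcripts) and 2, NUP214 and KPNA6, were higher (2.70%, beside 7.19%). The members' share of slower calls thus lies close to that of all transcripts. With correlated series, limma called 3 slower (NUP43, NUP62 and RCC1), beside 2.97% of all transcripts, and 0 faster, beside 0.285%. Centring each series changed the split over all transcripts from 783 slower and 246 faster to 622 and 442, and over the transport transcripts from 5 and 0 to 4 and 1, as NUP205 lost its call and NUP214 gained one in the faster direction.

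The ranges of the 4 series did not overlap between the lines in 14 transport transcripts that were lower in MDA-LM2, where 16.6% of all transcripts behaved so. They were NUP107, NUP43, NUP205, NUP210, NUP88, NUP62 (NM_153719), NUP62CL, KPNA3, KPNA4, IPO4, IPO5, CSE1L, RANGAP1 and RCC1 (NM_001048195). KPNA6 was the 1 transcript whose ranges were apart in the other direction, beside 5.83% of all transcripts. This count was chosen after the data had been seen.

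**Figure D1:**
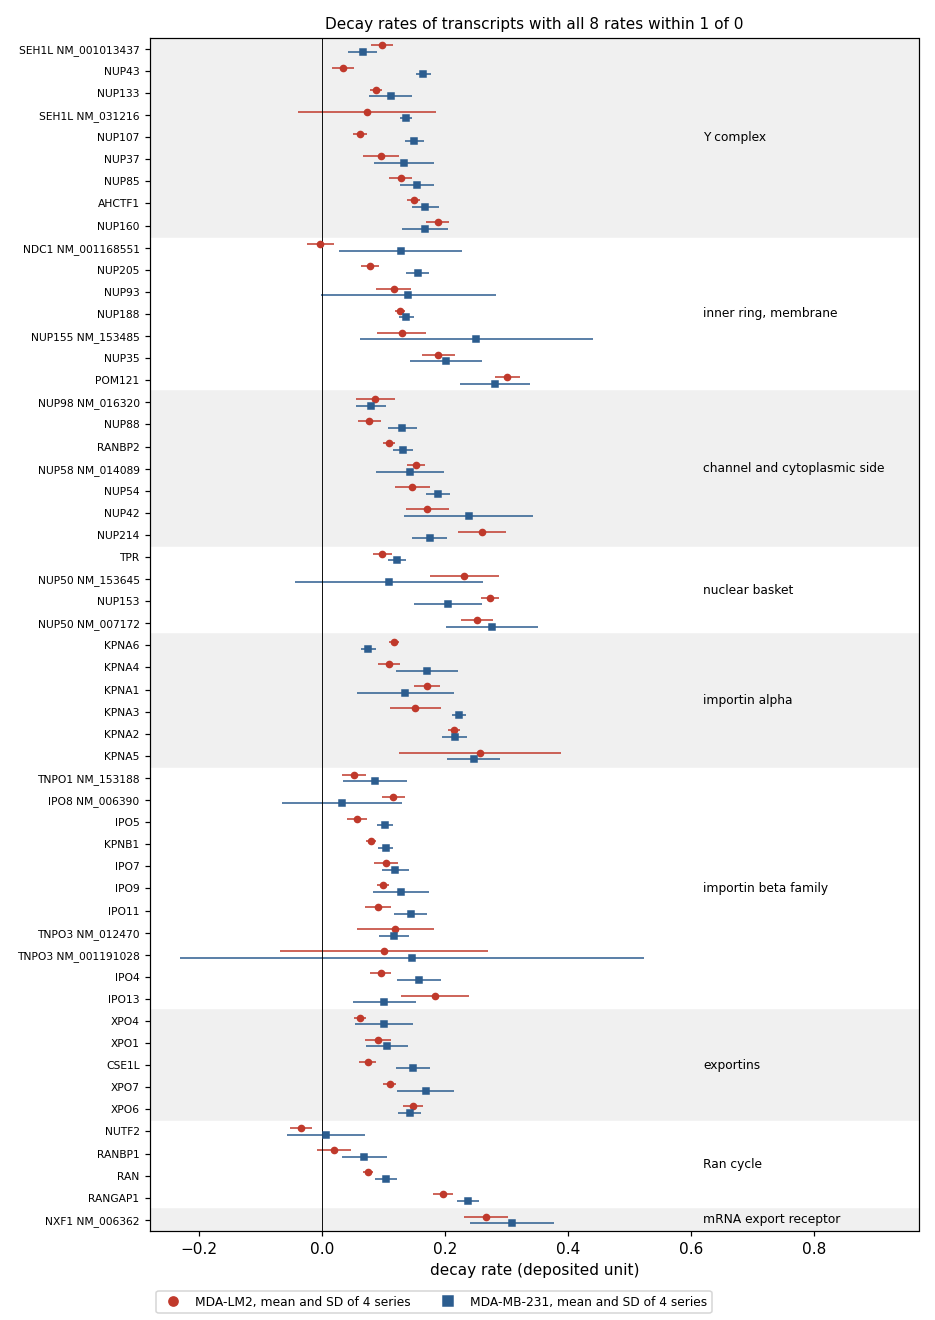
Mean decay rate (x axis, deposited unit) of the 54 transport transcripts with all 8 rates within 1 of 0, grouped by role from top to bottom. Red circles are MDA-LM2 and blue squares MDA-MB-231, with bars of 1 SD over 4 series. Red lies left of blue in 39 of the 54, and NUP43 and NUP107 show wide gaps beside short bars.

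Within each line, the transport transcripts lay below the middle of all transcripts. Taking those within 1 of 0, the median rate was 0.111 ± 0.00926 in MDA-LM2 against 0.141 ± 0.0157 in MDA-MB-231 (SD, n = 4 series), where all such transcripts had 0.146 ± 0.0117 and 0.153 ± 0.0154. The median transport transcript ranked at percentile 36.8 of all such transcripts in MDA-LM2 against 43.1 in MDA-MB-231. In every series of either line the median of the transport transcripts lay below that of all, from 0.102 beside 0.136 in series 1 of MDA-LM2 to 0.162 beside 0.175 in series 3 of MDA-MB-231. Transcripts fast in both lines, or slow in both, made up smaller shares of them than of all. The bounds were chosen after the data were seen, and shares in 1 line alone were not counted. Of the 54, 6 (11.1%) were above 0.2 in both lines, beside 21.7% of all, and 5 (9.26%) were below 0.1 in both, beside 15.6%. Those above were KPNA2, KPNA5, POM121, NXF1 (NM_006362), NUP153 and NUP50 (NM_007172). Those below were NUTF2, RANBP1, SEH1L (NM_001013437), NUP98 (NM_016320) and TNPO1 (NM_153188). Across the 54 transcripts the line means had a Spearman rho of 0.623 and a Pearson r of 0.707, beside 0.566 and 0.533 over all transcripts within 1. These are correlations across transcripts, which are not independent replicates.

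The Y complex held 2 of the 3 calls among the 54 transport transcripts within 1 (5.56% slower, beside 5.58% of all such transcripts). All 9 transcripts of its 8 genes had rates within 1, 7 were lower in MDA-LM2, where 57.5% of all such transcripts were, and 2 were called slower. NUP43, a propeller-shaped subunit of the outer ring, had rates of 0.0163, 0.0350, 0.0251 and 0.0576 in MDA-LM2 series 1 to 4. In MDA-MB-231 its rates were 0.165, 0.167, 0.178 and 0.148. The highest MDA-LM2 value was thus well under the lowest MDA-MB-231 value, and the mean ranked at percentile 11.97 in MDA-LM2 against 52.3 in MDA-MB-231. The difference was −0.131 (SE 0.0154), with a limma adjusted p of 0.00259, and 0.0136 with correlated series. Fitted on transcripts within 1 alone with correlated series, its adjusted p was 0.0907. With series 2 and 4 alone it was 0.102, at a difference of −0.111.

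NUP107, a core subunit of the Y complex that binds NUP133 in the stalk, had rates of 0.0701, 0.0607, 0.0682 and 0.0446 in MDA-LM2. Its MDA-MB-231 rates were 0.157, 0.127, 0.162 and 0.152. The 2 sets did not overlap and were about as tight in either line. The difference was −0.0886 (SE 0.0148), with a limma adjusted p of 0.0143, and 0.0660 with correlated series. The call was lost without MDA-LM2 series 2 (adjusted p = 0.0519), series 3 (0.0517) or series 4 (0.0564), at differences between −0.0910 and −0.0832. The 3′ untranslated region of NUP107, of 3347 bases, holds 19 ATTTA and 6 TATTTAT, the most of either kind of the 9 Y complex transcripts.

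The other 6 genes of the complex were not called. NUP133 had 0.0878 ± 0.00995 in MDA-LM2 against 0.111 ± 0.0355 in MDA-MB-231. NUP85 had 0.127 ± 0.0185 and 0.154 ± 0.0274. NUP37 had 0.0961 ± 0.0292 and 0.133 ± 0.0488, and AHCTF1, which brings the Y complex to chromatin, 0.149 ± 0.0102 and 0.168 ± 0.0223. All 4 overlapped between the lines. NUP160 was the one with the higher mean in MDA-LM2 among genes with a single transcript, at 0.188 ± 0.0190 against 0.167 ± 0.0373 (limma adjusted p = 0.574). SEH1L, a subunit shared with a regulator of mTORC1, had 2 transcripts that differed in opposite directions: NM_001013437, with a 3′ untranslated region of 479 bases, by 0.0316 and NM_031216, with one of 2284 bases, by −0.0634. Neither passed the test (limma adjusted p = 0.292 and 0.462). For NM_031216, MDA-LM2 series 1 and 3 stood at −0.0320 and −0.000140 and series 2 and 4 at 0.109 and 0.214.

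**Figure D2:**
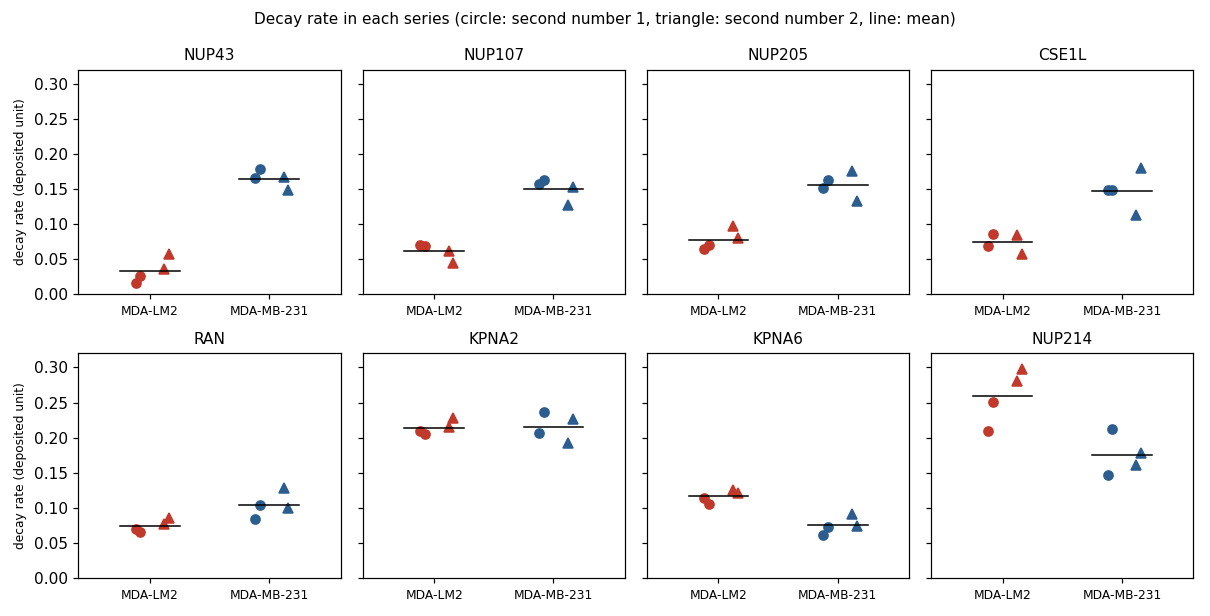
Decay rate (y axis, deposited unit) of 8 transport transcripts in each series, circles for second number 1 and triangles for second number 2, with a line at the mean of each cell line. NUP43, NUP107, NUP205 and CSE1L have no overlap and are lower in MDA-LM2, KPNA6 is the reverse, RAN and NUP214 overlap slightly and the KPNA2 means are close.

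In the inner ring and membrane group, 10 transcripts of 8 genes were measured and 9 had a lower mean in MDA-LM2, beside 66.2% of all transcripts. NUP205, a large scaffold protein of the inner ring, was the only one called, where 6.04% of all transcripts were called slower. Its MDA-LM2 rates were 0.0635, 0.0966, 0.0702 and 0.0800. Its MDA-MB-231 rates were 0.151, 0.175, 0.163 and 0.132. The ranges were apart, and the difference was −0.0777 (SE 0.0162; limma adjusted p = 0.0327). This was the weakest of the 5 calls: adjusted p = 0.158 with correlated series and 0.0910 with centred series, at −0.0546. It was lost without any 1 MDA-LM2 series (adjusted p from 0.0636 to 0.111) and without MDA-MB-231 series 1 (0.0584) or series 3 (0.0679). NUP188, the paralogue of NUP205, had 0.126 ± 0.00838 in MDA-LM2 against 0.136 ± 0.0124 in MDA-MB-231, a difference of −0.0102 (limma adjusted p = 0.641). Whether the 2 paralogues' differences are unequal was not tested.

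NDC1, a membrane protein that anchors the pore, had the group's largest difference within 1, in transcript NM_001168551. Its rates were 0.0113, 0.0148, −0.00616 and −0.0338 in MDA-LM2. In MDA-MB-231 they were 0.000231, 0.169, 0.236 and 0.105. Series 1 of MDA-MB-231 lay among the MDA-LM2 values while the other 3 lay above all of them. The difference of −0.131 (SE 0.0488) had a limma adjusted p of 0.150, and 0.0357 at −0.173 without that series. A rate at or below 0 marks no fall in the measured abundance of labelled RNA over the chase. The scale of the rates is not given, so such a rate was not read as full stability. POM121, a membrane nucleoporin, was among the fastest transport transcripts. Its rates were 0.313, 0.304, 0.272 and 0.315 in MDA-LM2 against 0.218, 0.288, 0.355 and 0.263 in MDA-MB-231. The MDA-LM2 values fell inside the range of the MDA-MB-231 values, and the difference of 0.0202 did not pass the test (limma adjusted p = 0.692). POM121 has a near-identical copy, POM121C, and how reads were split between them is unknown. NUP35, an inner ring protein that binds the membrane, had 0.188 ± 0.0268 and 0.201 ± 0.0583. NUP155 (NM_153485), also of the inner ring, had 0.129 ± 0.0392 and 0.250 ± 0.190, with a limma adjusted p of 0.412.

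For NUP93, which links the inner ring to the channel, the spread within MDA-MB-231 followed the second number. The MDA-MB-231 rates with second numbers 1 and 2 were apart in 25 of the 54 transcripts within 1 (46.3%, beside 57.7% of all). Its MDA-MB-231 rates were 0.213 and 0.304 in series 1 and 3, but 0.0197 and 0.0236 in series 2 and 4. In MDA-LM2 the 4 rates lay between 0.0892 and 0.156. The difference between lines was −0.159 with second number 1 and 0.111 with second number 2, and −0.0239 over all (limma adjusted p = 0.824). NUP93 was named after its values were seen.

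The channel, cytoplasmic face and mRNA-docking group held 14 transcripts of 10 genes, with 7 within 1. NUP62, the central channel protein, was called slower in MDA-LM2 in transcript NM_153719. Its MDA-MB-231 rates were 9.64, 9.57, 9.501 and 9.496. Its MDA-LM2 rates were 0.730, 0.0791, 0.400 and −1.82. The line difference of −9.71 (SE 0.778; limma adjusted p = 0.000274, and 0.00161 with correlated series) kept an adjusted p below 0.05 in each of the 15 alternatives tallied for it. That tally leaves out ranks within a series, the deposited score and medians per gene. It also leaves out the fits on transcripts within 1, which could not include this transcript. A second NUP62 transcript, NM_153718, had −1.36, 3.02, 1.51 and 3.09 in MDA-MB-231 and 0.0290, 0.536, 0.267 and 2.71 in MDA-LM2. Its ranges overlapped widely (limma adjusted p = 0.693). The 2 transcripts belong to 1 gene, and how reads were divided between them is not given. No NUP62 transcript had all its rates within 1.

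NUP214, a cytoplasmic filament protein that takes part in mRNA export, had the largest difference within 1 in its group, in the direction opposite to most. Its rates were 0.209, 0.281, 0.251 and 0.297 in MDA-LM2 against 0.147, 0.162, 0.213 and 0.178 in MDA-MB-231. Only the lowest MDA-LM2 value and the highest MDA-MB-231 value crossed. The difference was 0.0848 (SE 0.0268; limma adjusted p = 0.106), and with centred series it was 0.108 with an adjusted p of 0.0294. NUP88, the partner of NUP214 on the cytoplasmic face, had 0.0766 ± 0.0191 in MDA-LM2 against 0.130 ± 0.0238 in MDA-MB-231, with no overlap (limma adjusted p = 0.122). The 2 partners thus had mean differences of opposite sign, neither of which passed the test, and the contrast between them was not tested.

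NUP54, a partner of NUP62 in the channel, had 0.146 ± 0.0282 and 0.188 ± 0.0198 (limma adjusted p = 0.265). RANBP2, the large filament protein on the cytoplasmic side, had 0.109 ± 0.00964 and 0.131 ± 0.0165 (0.369). RANBP2 has near-identical copies in the RGPD family, so its rate is uncertain. NUP42, which takes part in mRNA export, had 0.171 ± 0.0353 and 0.238 ± 0.105. NUP58 (NM_014089), the transcript with 4 TATTTAT, had 0.152 ± 0.0149 and 0.142 ± 0.0554, and NUP98 (NM_016320) had 0.0861 ± 0.0317 and 0.0792 ± 0.0252. The last 3 overlapped between the lines and had adjusted p of 0.438, 0.834 and 0.844 in limma.

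Of the 4 nuclear basket transcripts, 3 had a mean above 0.2 in MDA-LM2, and 2 of these were of NUP50. The upper quartile of all transcripts within 1 was 0.231 in MDA-LM2, and the share of them above 0.2 there was not counted. None of the 4 was called, beside 6.04% of all transcripts called slower and 1.9% faster. NUP153, which anchors the basket, had 0.272 ± 0.0148 in MDA-LM2 against 0.204 ± 0.0552 in MDA-MB-231 (limma adjusted p = 0.227). NUP50, a basket protein that helps importins release cargo, had 2 transcripts. NM_007172 had rates of 0.239, 0.270, 0.275 and 0.221 in MDA-LM2 against 0.249, 0.283, 0.197 and 0.374 in MDA-MB-231. All MDA-LM2 values lay within the MDA-MB-231 range. NM_153645 had 0.208, 0.208, 0.192 and 0.315 in MDA-LM2 against −0.0166, 0.161, 0.301 and −0.0113 in MDA-MB-231. Here 3 of 4 MDA-MB-231 values were below every MDA-LM2 value, and the difference of 0.122 (SE 0.0766) had a limma adjusted p of 0.329. TPR, the coiled-coil protein of the basket filaments, was lower than these in MDA-LM2, at 0.0975 ± 0.0157 and 0.122 ± 0.0149 (0.343).

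Importin alpha proteins recognise the classical nuclear localisation signal and hand cargo to importin beta. Their 6 genes had 1 transcript each, all within 1, and 3 were lower and 3 higher in MDA-LM2, where 57.5% of all such transcripts were lower. KPNA3 had the largest difference. Its rates were 0.109, 0.201, 0.128 and 0.168 in MDA-LM2 against 0.208, 0.232, 0.232 and 0.220 in MDA-MB-231. The ranges were apart by a small gap, with a difference of −0.0714 (SE 0.0242; limma adjusted p = 0.121). KPNA4, of the same subfamily as KPNA3, had 0.108 ± 0.0173 and 0.171 ± 0.0503, again without overlap (0.217). KPNA6 was the reverse, with 0.114, 0.125, 0.106 and 0.121 in MDA-LM2 against 0.0611, 0.0914, 0.0731 and 0.0740 in MDA-MB-231. Every MDA-LM2 value was above every MDA-MB-231 value, and the difference was 0.0416 (SE 0.0135; limma adjusted p = 0.110). The authors' deposited score for KPNA6, turned to an adjusted p over all transcripts, gave 0.0429. KPNA2, a proliferation-linked member, had 0.214 ± 0.00968 and 0.215 ± 0.0201, a difference of −0.000931 (SE 0.0182). KPNA1 had 0.170 ± 0.0213 and 0.135 ± 0.0792. KPNA5 spread widely in MDA-LM2, from 0.145 to 0.438, beside 0.206 to 0.302 in MDA-MB-231. KPNA2 and KPNA6 are shown in full in the plot of single series and were picked after their values were seen.

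The importin beta family supplies the import receptors that bind nucleoporins and Ran directly. It had 15 transcripts of 11 genes, 12 with a lower mean in MDA-LM2, beside 66.2% of all transcripts. None was called, beside 6.04% of all transcripts called slower and 1.9% faster. KPNB1, importin beta itself, had 0.0734, 0.0908, 0.0756 and 0.0765 in MDA-LM2 against 0.100045, 0.0884, 0.108 and 0.116 in MDA-MB-231. The ranges met at 1 value each, and the difference was −0.0240 (SE 0.0131; limma adjusted p = 0.290). IPO5, a carrier of ribosomal proteins and histones, had 0.0561 ± 0.0166 and 0.102 ± 0.0128 (0.109), and IPO4 had 0.0953 ± 0.0172 and 0.157 ± 0.0358 (0.135). Both were without overlap. IPO11 had 0.0905 ± 0.0214 and 0.144 ± 0.0266 (0.150). IPO7 had 0.104 ± 0.0192 and 0.119 ± 0.0223, and IPO9 had 0.0991 ± 0.0101 and 0.128 ± 0.0451. IPO13, a receptor that works in both directions, had a higher mean in MDA-LM2, at 0.183 ± 0.0551 against 0.101 ± 0.0512 (0.225).

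IPO8 (NM_006390) had the family's largest difference within 1. Its rates were 0.123, 0.134, 0.115 and 0.0898 in MDA-LM2. In MDA-MB-231 they were −0.0724 and −0.0234 in series 1 and 3, but 0.144 and 0.0764 in series 2 and 4. The difference was therefore 0.167 with second number 1 and 0.00173 with second number 2, with 0.0844 over all (SE 0.0473; limma adjusted p = 0.294). TNPO1, transportin, which imports RNA-binding proteins, had 0.0522 ± 0.0194 and 0.0854 ± 0.0518 in transcript NM_153188. TNPO3, which imports splicing factors, had 0.119 ± 0.0629 and 0.116 ± 0.0242 in NM_012470. The other TNPO3 transcript, NM_001191028, ran from −0.132 to 0.229 in MDA-LM2 and from −0.128 to 0.701 in MDA-MB-231.

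Among the exportins, 5 transcripts of 5 genes were all within 1 and 4 were lower in MDA-LM2, beside 57.5% of all such transcripts. None was called, where 5.58% of all such transcripts were called slower. CSE1L, which returns importin alpha to the cytoplasm, came closest. Its rates were 0.0685, 0.0846, 0.0852 and 0.0567 in MDA-LM2 against 0.149, 0.112, 0.148 and 0.179 in MDA-MB-231. The ranges were apart, with a difference of −0.0733 (SE 0.0185; limma adjusted p = 0.0603, and 0.279 with correlated series). Without MDA-MB-231 series 2, its lowest value there, the adjusted p was 0.0264. XPO1, the main exporter of proteins with a leucine-rich export signal, had 0.0710, 0.114, 0.0742 and 0.103 in MDA-LM2 against 0.120, 0.0609, 0.141 and 0.101 in MDA-MB-231. Its ranges overlapped, and series 1 and 3 were low in MDA-LM2 and high in MDA-MB-231. The difference was −0.0152 (SE 0.0218; limma adjusted p = 0.649), and its sign turned to 0.00789 with centred series. XPO7 had 0.109 ± 0.0103 and 0.168 ± 0.0464 (0.205), XPO4 had 0.0608 ± 0.00950 and 0.101 ± 0.0472 (0.329), and XPO6, the exporter of actin, had 0.147 ± 0.0162 and 0.142 ± 0.0189 (0.864).

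The Ran cycle sets the direction of transport. RCC1 loads Ran with GTP on chromatin, RANGAP1 and RANBP1 promote hydrolysis on the cytoplasmic side, and NUTF2 brings RanGDP back. RAN had 0.0697, 0.0765, 0.0657 and 0.0854 in MDA-LM2 against 0.0838, 0.128, 0.104 and 0.0997 in MDA-MB-231. Only 1 value of each line lay within the range of the other, and the difference of −0.0294 (SE 0.0147) had a limma adjusted p of 0.267. RANGAP1 had 0.197 ± 0.0159 and 0.237 ± 0.0179, without overlap (0.234).

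RANBP1 and NUTF2 were among the 3 slowest transport transcripts within 1 by the mean over all 8 series, with NDC1 (NM_001168551). RANBP1 had 0.00702, 0.0564, −0.00741 and 0.0187 in MDA-LM2 against 0.0142, 0.0884, 0.0753 and 0.0947 in MDA-MB-231. NUTF2 had −0.0418, −0.0294, −0.0538 and −0.0137 in MDA-LM2 against −0.0766, 0.0735, 0.0312 and −0.00192 in MDA-MB-231. All 4 MDA-LM2 rates of NUTF2 were below 0, as were 2 of its MDA-MB-231 rates, and both genes overlapped between the lines. Neither gene's difference passed the test (−0.0495 with a limma adjusted p of 0.250, and −0.0412 with 0.427).

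RCC1 was measured as 3 transcripts, and each had a rate beyond 1. NM_001048195 was called slower in MDA-LM2. Its rates were −0.189, −0.236, −1.74 and 0.00670 there and 2.89, 1.90, 2.60 and 2.45 in MDA-MB-231. The ranges were far apart, and the difference was −2.999 (SE 0.427; limma adjusted p = 0.00730, and 0.0483 with correlated series). With series 1 and 3 alone the adjusted p was 0.0567, at −3.71. NM_001048199 had 0.268, 0.495, 0.184 and 9.23 in MDA-LM2 against 8.97, 9.42, −0.299 and 9.19 in MDA-MB-231, so 1 series of each line stood with the other line (limma adjusted p = 0.393). NM_001269 had 0.233, 2.03, 0.305 and 0.195 in MDA-LM2 against 0.155, 0.0219, 0.255 and 0.197 in MDA-MB-231 (0.432). Its mean difference was 0.534, which did not pass the test and rests on series 2 of MDA-LM2. With series 1 and 3 alone it was 0.0638.

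NXF1, the mRNA export receptor, was among the 3 fastest transport transcripts within 1 by the mean over all 8 series, with POM121 and NUP50 (NM_007172). NM_006362 had 0.216, 0.298, 0.269 and 0.285 in MDA-LM2 against 0.332, 0.209, 0.363 and 0.329 in MDA-MB-231. Series 2 of MDA-MB-231 lay below all MDA-LM2 values and the other 3 lay above them, with a difference of −0.0413 (SE 0.0398; limma adjusted p = 0.4998). NM_001081491, a longer transcript of the gene, had 9.42, 0.0905, 0.286 and −0.00397 in MDA-MB-231. In MDA-LM2 it had 0.466 and 0.491 in series 1 and 3, but 0.0781 and 0.0901 in series 2 and 4.

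**Figure D3:**
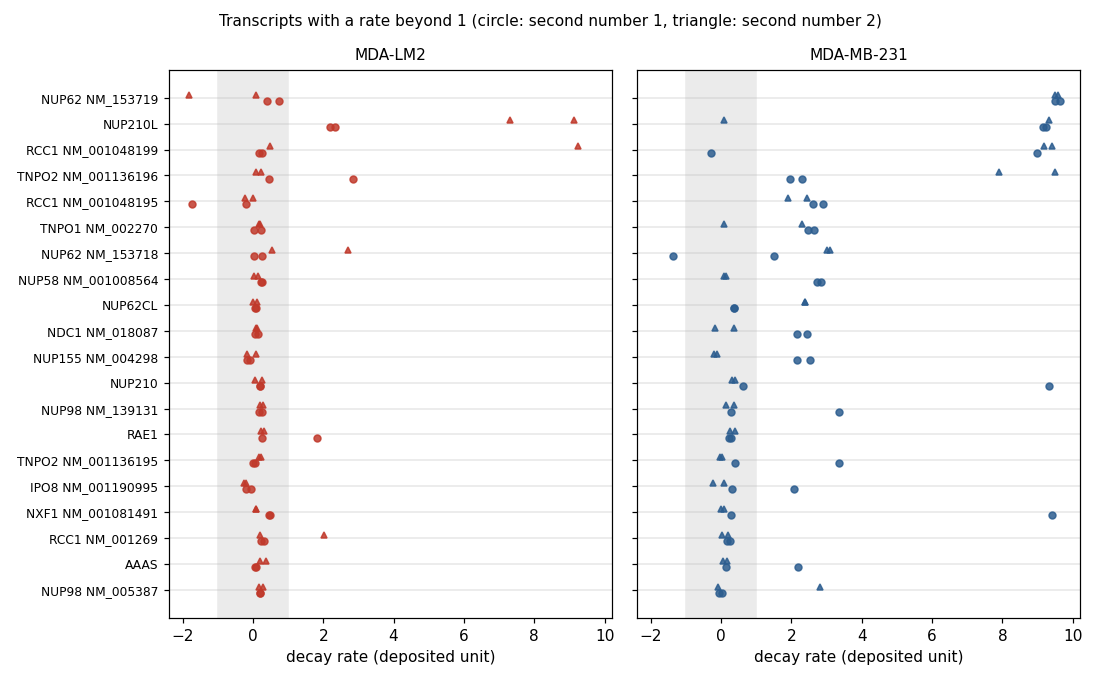
Decay rates (x axis, deposited unit) of the 20 transport transcripts with a rate beyond 1, in MDA-LM2 on the left and MDA-MB-231 on the right. Circles mark second number 1, triangles second number 2, and the grey band runs from −1 to 1. MDA-MB-231 has 40 points beyond 1 and MDA-LM2 has 11, and most points beyond 1 lie near 2 to 3 or near 9.

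Rates beyond 1 were found in 20 of the 74 transcripts (27.0%, beside 34.5% of all): in 12 of them in MDA-MB-231 only, in 2 (RAE1 and RCC1 NM_001269) in MDA-LM2 only, and in 6 in both lines. By single rates, 40 of 296 were beyond 1 in MDA-MB-231 (13.5%, beside 18.3% over all transcripts) and 11 of 296 in MDA-LM2 (3.72%, beside 4.24%). What gives a rate of this size is not recorded in the sources. The split between genes with 1 transcript and with several is large. Counting coding transcripts present in both tables, 46 genes had 1 transcript, of which 5 were beyond 1 (10.9%, beside 26.0% of all such coding transcripts). Of 28 transcripts of the 13 genes with several, 15 were beyond 1 (53.6%, beside 51.8%). For 7 genes (TNPO1, NUP58, NUP98, NUP155, NDC1, IPO8 and NXF1) 1 transcript stayed within 1 while another did not. NUP62, TNPO2 and RCC1 had none within 1, and SEH1L, TNPO3 and NUP50 had all within 1. The 5 genes with a single transcript beyond 1 were AAAS, RAE1, NUP210, NUP210L and NUP62CL.

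Several of these transcripts split by the second number within MDA-MB-231. There, NUP58 (NM_001008564) had 2.83 and 2.72 in series 1 and 3, and 0.124 and 0.0862 in series 2 and 4. NDC1 (NM_018087) had 2.43 and 2.15, then −0.183 and 0.372. NUP155 (NM_004298), of the inner ring, had 2.53 and 2.16, then −0.132 and −0.208. NUP62CL went the other way, with 0.366 and 0.370 in series 1 and 3 and 2.40 and 2.39 in series 2 and 4. All 4 transcripts had every MDA-LM2 rate within 1, so the 2 pairs of MDA-MB-231 series gave very different line contrasts, for example −2.52 and −0.0243 for NUP58. TNPO1 (NM_002270) had 2.65, 2.29 and 2.46 in the first 3 MDA-MB-231 series and 0.0840 in the last, against 0.0379 to 0.227 in MDA-LM2 (limma adjusted p = 0.114). TNPO2 (NM_001136196) had 1.97 and 2.31 in series 1 and 3 of MDA-MB-231 and 7.89 and 9.498 in series 2 and 4.

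The remaining transcripts had 1 series beyond 1 each, in MDA-MB-231 (NUP210, NUP98 NM_139131 and NM_005387, TNPO2 NM_001136195, IPO8 NM_001190995, AAAS and NXF1 NM_001081491) or MDA-LM2 (RAE1). NUP210 was without overlap although only series 1 of MDA-MB-231, at 9.34, was beyond 1; its other rates there were 0.394, 0.633 and 0.318, against 0.0713 to 0.245 in MDA-LM2. NUP210L had 2.19, 7.31, 2.34 and 9.12 in MDA-LM2 against 9.17, 9.33, 9.23 and 0.0887 in MDA-MB-231.

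**Figure D4:**
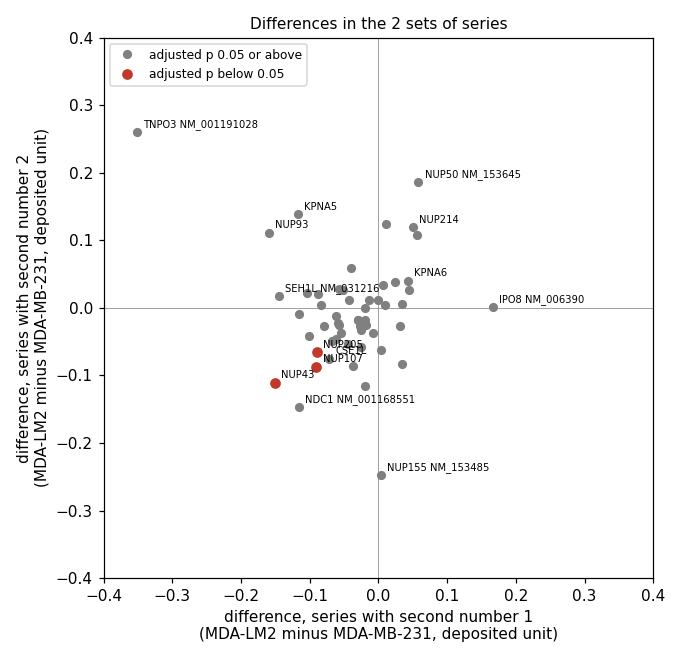
Difference between lines (MDA-LM2 minus MDA-MB-231, deposited unit) of the 54 transcripts within 1, from series with second number 1 on the x axis and second number 2 on the y axis. Red points are the 3 called transcripts, NUP43, NUP107 and NUP205, which are negative on both axes, as ranges without overlap require. NUP93, KPNA5 and TNPO3 (NM_001191028) are negative on the x axis and positive on the y axis.

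The 2 sets of series gave differences of the same sign in 37 of the 54 transcripts within 1 (68.5%, beside 59.7% of all). In MDA-LM2 the rates of the 2 sets were apart in 34 of 54 (63.0%, beside 60.2% of all), and in MDA-MB-231 in 25 (46.3%, beside 57.7%). NUP43 had −0.151 and −0.111 in the 2 sets, NUP107 −0.0902 and −0.0869, NUP205 −0.0900 and −0.0655 and CSE1L −0.0716 and −0.0751. All 4 were negative in both sets, which their ranges without overlap fix in advance, so the shared sign is no separate check. NUP107 and CSE1L differed least between the sets. The part of the second number in the line differences was not tested beyond the fits with correlated series.

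The median rates of transport transcripts with and without the AU-rich motif were close in both lines. TATTTAT was present in 16 of the 54 within 1 (29.6%, beside 34.3% of all matched transcripts within 1), and ATTTA in 68.5% (beside 73.5%). Transport transcripts with TATTTAT had a median rate of 0.109 in MDA-LM2 against 0.139 in MDA-MB-231, and those without had 0.112 and 0.141. Over all matched transcripts within 1 the medians were 0.155 and 0.165 with the motif and 0.138 and 0.152 without. Transcripts with the motif also had longer 3′ untranslated regions, with medians of 2712.5 and 847 bases among the transport genes, so motif and length cannot be told apart here. TATTTAT was found neither in the 6 transcripts above 0.2 in both lines nor in the 5 below 0.1 in both. A match is a string of letters in an annotated region, and binding was not measured.

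The 3 neighbouring lists show the surroundings of the pathway. Over all transcripts 66.2% were lower in MDA-LM2, with a median difference of −0.0538, and −0.0166 over those within 1. Of all transcripts, 6.04% were called slower and 1.9% faster. Of 23 factors of mRNA export, including the TREX and TREX-2 complexes, 22 had a rate, in 28 transcripts. Of these 22 transcripts were lower in MDA-LM2 and 0 were called, with a median difference of −0.0627, and −0.0555 over those within 1. Of 20 genes of the nuclear lamina and envelope all had a rate, in 31 transcripts, with 18 lower, 0 called and a median of −0.0335, and 0.000964 over those within 1. Of 17 other Ran-binding and transport factors 15 had a rate, in 20 transcripts, with 12 lower and a median of −0.0363, and 0.00622 over those within 1. In this list 1 transcript was called slower and 1 faster, and 0 with correlated series. The latter was POM121C, the near copy of POM121, with 0.337 ± 0.0359 in MDA-LM2 against 0.209 ± 0.0311 in MDA-MB-231 (difference 0.127, SE 0.0279; limma adjusted p = 0.0387, and 0.123 with correlated series). POM121 itself differed by 0.0202, and the contrast between the 2 copies was not tested.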

How the data were processed

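The authors deposited, per the file headers, 1 decay rate per transcript (RefSeq accession) in each of 4 series of MDA-LM2 and MDA-MB-231, and a differential score. Neither score nor rate carries a stated unit. The deposited score equalled, within 0.001 for 12966 transcripts, the sign of the line difference times 1 minus a two-sided unequal-variance p. TopHat, Cufflinks and hg18 are named, without roles, in the submitters' processing notes. The series' design text derives the rate from the fall in transcript abundance over the time points. Read depth is unknown, and how reads were divided between transcripts of a gene or between near-identical copies is not given in the sources used here.

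Transcripts took their symbol from RefSeq's gene table for GRCh38.p14 (12644) and GENCODE v29 (118), and 204 had none. As builds differ, no coordinates are given. All transcripts were fitted with limma 3.58.1 (R 4.3.3; variance trend, line only, two-sided, Benjamini-Hochberg over 12966 transcripts, calls below 0.05). Correlation between series of a line with the same second number was estimated at 0.460 by duplicateCorrelation. Alternatives changed the prior, unit, range, scaling, block, test or series. Values of every series were given for called transcripts, the largest difference within 1 in each role, the 3 fastest and 3 slowest, RAN, KPNB1, XPO1, CSE1L and NXF1, and transcripts beyond 1 were named; others given in full were picked after their values were seen. The values of 1 called transcript of a neighbouring list are not reported here. The members, roles and lists were chosen with earlier results of these data known. Python 3.11.15 with pandas 2.3.3, numpy 2.4.6, scipy 1.17.1 and matplotlib 3.10.9 was used.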

Additional observations from a re-analysis of the deposited data

Results flagged for a closer look

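In 15 of 74 groups of 4 series examined, 1 series stood far from the other 3. Its gap, as a share of the group's range, was above Dixon's critical value for 4 values. The groups were the 2 lines for 37 transcripts: those called or given in full by rule, and those with a rate beyond 1. Other transcripts named in the text, such as KPNA6 and NUP93, were not examined. Chance flags about 1 in 20, or 3.7 groups. Transcripts named for a rate beyond 1 were among those examined, which raises the number.

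In MDA-MB-231, series 1 stood alone for NXF1 NM_001081491 (9.42, with the others from −0.00397 to 0.286), NUP210 (9.34, others up to 0.633), TNPO2 NM_001136195 (3.34, others up to 0.383) and AAAS (2.19, others up to 0.168). Series 2 stood alone for NUP98 NM_005387 (2.82, others up to 0.0146), and series 3 for NUP98 NM_139131 (3.36, others up to 0.355). In the opposite sense, series 3 of RCC1 NM_001048199 was low at −0.299 where the others were at least 8.97. Series 4 was low for NUP210L (0.0887, others at least 9.17) and TNPO1 NM_002270 (0.0840, others at least 2.29).

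In MDA-LM2, RCC1 had 1 odd series in each of its transcripts: −1.74 in series 3 of NM_001048195 (others from −0.236 to 0.00670), 9.23 in series 4 of NM_001048199 (others up to 0.495) and 2.03 in series 2 of NM_001269 (others up to 0.305). RAE1 stood at 1.83 in series 3 (others up to 0.306) and TNPO2 NM_001136196 at 2.86 in series 3 (others up to 0.444). NUP50 NM_153645 was the 1 case within 1, at 0.315 in series 4 with the others from 0.192 to 0.208.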

How the results depend on the processing

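Of the 5 calls, NUP62 (NM_153719) was kept in all 15 alternatives tallied for it and RCC1 (NM_001048195) lost its call in 2 of 15. NUP43 lost it in 3 of 17, NUP107 in 7 and NUP205 in 13, and none changed sign. These tallies leave out ranks within a series, the deposited score and medians per gene. For NUP62 and RCC1 they also leave out the fits on transcripts within 1, from which both were absent for their rates beyond 1. In such a fit with correlated series NUP43, NUP107 and NUP205 lost their calls, so the tallies are not alike. Fitted alone, transcripts within 1 gave 3 slower transport transcripts and a median difference over all transcripts of −0.0166. The same transcripts with correlated series gave 0 calls over all transcripts in either direction and 0 among the transport genes (limma; 1508 and 4 at an unadjusted p below 0.05), again with a median of −0.0166. Correlated series in all rows gave 385 slower, 37 faster and 3 slower transport transcripts. Centred series gave 442 faster, 1 of them a transport transcript, with medians of −0.0181 and −0.0307. The deposited score gave 139 faster, ranks within a series 845, and each had 1 faster transport transcript (KPNA6 and NUP214). With second number 1 alone there were 2007 slower and 514 faster, 10 and 1 among the transport genes; with second number 2 alone the medians were −0.0183 over transport and −0.0210 over all transcripts. Medians per gene gave 1 faster transport gene, NUP98 (0.0876, adjusted p = 0.0261). No single NUP98 transcript was called: NM_005387 differed by −0.461, NM_016320 by 0.00687 and NM_139131 by −0.802 (limma adjusted p = 0.652, 0.844 and 0.484). That call thus rests on medians across transcripts, 2 of which had rates beyond 1. By gene, NUP43, NUP107, NUP205 and NUP62 stayed slower and RCC1 was not called. Whether replicate numbers pair the lines is not stated. Across transcripts within 1, deviations of same-numbered series across lines correlated between −0.00320 and 0.00731. Such a correlation cannot show a shift shared by all transcripts. With the replicate block, 310 were slower and 31 faster, and 1 transport transcript, NUP62, stayed slower. Leaving out 1 series at a time gave 457 to 1082 slower and 91 to 352 faster over all transcripts, 3 to 6 slower and 0 to 1 faster among the transport genes, and medians of −0.0508 to −0.0327 over transport and −0.0594 to −0.0428 over all. The fewest calls came without a series of MDA-LM2 and the most without series 2 of MDA-MB-231. Signs reversed for transcripts that were not called: XPO1 (0.00789 centred, 0.0273 with second number 2), NXF1 NM_006362 (0.0220 with second number 2), NUP50 NM_007172 (0.0341 with second number 1, and −0.0509 to 0.00813 leaving out 1 series, above 0 without MDA-MB-231 series 4) and POM121 (−0.000938 to 0.0449 leaving out 1 series, below 0 without MDA-MB-231 series 1). The cause was not tested. Read depth is unknown, so no limit from depth can be given.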

Other observations

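In the MDA-MB-231 table, 5 more transport transcripts had rates and the MDA-LM2 table held no row for them, so they entered no comparison. NXT1, the partner of NXF1 in mRNA export, stood at 9.49, 9.54, 9.55 and 9.53, in the same high clump as NUP62 NM_153719, with a mean of 9.53 ± 0.0284 (SD, n = 4 series). TNPO2 NM_013433 had −1.78 and −2.08 in series 1 and 3 and 0.140 and 0.128 in series 2 and 4. CSE1L NM_001256135 had 0.175 and 0.0332 in series 1 and 3 and −2.42 and −2.78 in series 2 and 4. Both split by the second number, in opposite directions. NUP98 NM_139132 had 1.48, −6.14, 1.602 and 1.594, with series 2 far below the rest. RAE1 NM_001015885 ran from −0.397 to −0.000331.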
